A study of Homo sapiens with 11 samples.

Results

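Translation initiation factors are the proteins that bring the ribosome, the initiator tRNA and the mRNA together, and their genes carry EIF symbols. All rows of both RNA tables whose symbol starts with EIF1 to EIF6 were taken, without 1 pseudogene and 3 antisense transcripts. This left 54 genes of 19806 gene names found in both tables. EIF4EBP1, EIF4EBP2 and EIF4EBP3 have names that end like those of pseudogenes but code for the 4E-BP proteins, and were kept. EIF1AY lies on the Y chromosome and is counted without printing its values. By its title, the study concerned the promotion of translation by METTL3, which catalyses m6A methylation of mRNA. A549 and H1299 are established human lung cancer cell lines, here grown in DMEM with serum. Each line had 1 RNA-seq library with an shRNA against GFP (shGFP, the control) and 2 with one against METTL3 (shMETTL3, libraries 1 and 2), so that all cells carried an shRNA. Whether these numbers stand for hairpins or for replicate cultures is not stated in the labels, so p-values measure only the spread between these libraries, which may be technical.

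Initiation begins when eIF2 carries the initiator tRNA to the small ribosomal subunit together with eIF1, eIF1A, eIF3 and eIF5. The cap-binding complex eIF4F, made of the cap-binding protein eIF4E, the RNA helicase eIF4A and the scaffold eIF4G, loads this assembly onto the capped 5′ end of the mRNA, where eIF3 forms the bridge to the ribosome. eIF2B recharges eIF2 with GTP, kinases that phosphorylate eIF2 block this step under stress, and 4E-BP proteins keep eIF4E from eIF4G. The tables hold transcript levels, which do not measure translation.

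Multiplying the deposited values back gave 14447379 to 19966206 reads per A549 library. For H1299, whose values have 1 decimal, the same gave estimated totals of 23099169 to 26351309 reads per library, since single genes cannot be turned back into whole reads with certainty. Values of a gene are given throughout as deposited, in the order shGFP, library 1, library 2. The targeted gene METTL3 read 557, 231 and 232 in A549 and 271, 123 and 100.2 in H1299. The initiation factor genes held 1.07 to 1.20% of each A549 total and 1.07 to 1.08% of each H1299 total. Epithelial markers were present in A549, with EPCAM low at 14.1 to 75.4. In H1299 the cadherin CDH1 was at 1.0 to 1.1 and EPCAM at 0 to 0.4. The keratins KRT18 and KRT8 were present there, at 1075 to 1419 and 113 to 189. Within A549, library 1 stood apart. It had 4 of 5 listed markers of a lung epithelial line above both other libraries (CDH1 at 386, 646 and 284) and VIM below them. The summed level of these markers, VIM included, was 25841, 31734 and 25114. In H1299 the sum was 16521, 19038 and 14792, also highest in library 1, with VIM at 14995, 17428 and 13603. The leukocyte gene PTPRC was at 0 to 0.7 in all 6 libraries. RNA45S5, the ribosomal RNA precursor, took 23.1, 20.5 and 25.4% of the H1299 totals and 0.208 to 0.284% in A549. In bulk libraries, fewer cells of a kind and less RNA per cell cannot be told apart.

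In A549, initiation factor transcripts stood below the control mainly in library 1. There 44 of 54 genes (81.5%) were below shGFP, where 47.7% of all 17454 genes tested were, and the median log2 difference was -0.17 against 0.02 for all genes. In library 2, 26 of 54 (48.1%) were below, against 52.2% of all genes, with a median of 0.01. Both libraries were below the control for 25 genes and above it for 9, while 27.2% of all genes were on each of these sides. Among genes with a mean of at least 100, 23 of 49 initiation factor genes were below in both libraries and 9 above, against 30.0 and 22.9% of such genes. Library 1 was below the control for 52.7% of these better measured genes.

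By deposited values, H1299 departed less from the rest of the transcriptome. In library 1, 24 of 52 genes (46.2%) were below the control, against 37.3% of all genes, and in library 2 32 (61.5%), against 55.4%. Both libraries were below for 19 of 52 (36.5%) and above for 15 (28.8%), against 24.5 and 30.6% of all 16470 genes tested. The medians were 0.01 and -0.04, against 0.09 and -0.04 for all genes. With a mean of at least 100, 17 of 46 were below in both and 11 above, against 27.3 and 27.6% of such genes, of which library 1 had 40.3% below. With RNA45S5 left out of each library total, 15 members were below in both libraries and 15 above, against 23.9 and 34.7% of all genes. Median centring, which sets the median difference of all genes to 0, moved the counts the other way. It put 35 of 52 members below in library 1 and 28 in library 2, against 50.0% of all genes in each. Both libraries were then below for 23 members and above for 12, against 29.3% of all genes on each side. EIF4E3 and EIF1AY had means under 1 in H1299 and were not tested there.

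No initiation factor gene passed the test in a comparison of knockdown with control. By limma, with Benjamini-Hochberg adjustment over all genes, 0 of 54 members in A549 and 0 of 52 in H1299 had an adjusted p under 0.05, as did 0% of all genes in each line. The members with an unadjusted p under 0.05 also numbered 0 in each line, where 0.659% of all A549 genes and 0.601% of all H1299 genes had one. edgeR and DESeq2 called 0 genes in A549, with 138 and 57 genes and 0 members under 0.05 before adjustment. With both lines in 1 fit, 3 of 52 members had an unadjusted p under 0.05 (2.41% of all 15546 genes did) and 0 an adjusted one (0% of all genes). The members were EIF3CL, EIF5A and EIF4A2, each with an adjusted p of 0.99998 by limma. Counts of 0 with so few libraries do not show that nothing changed.

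**Figure D1:**
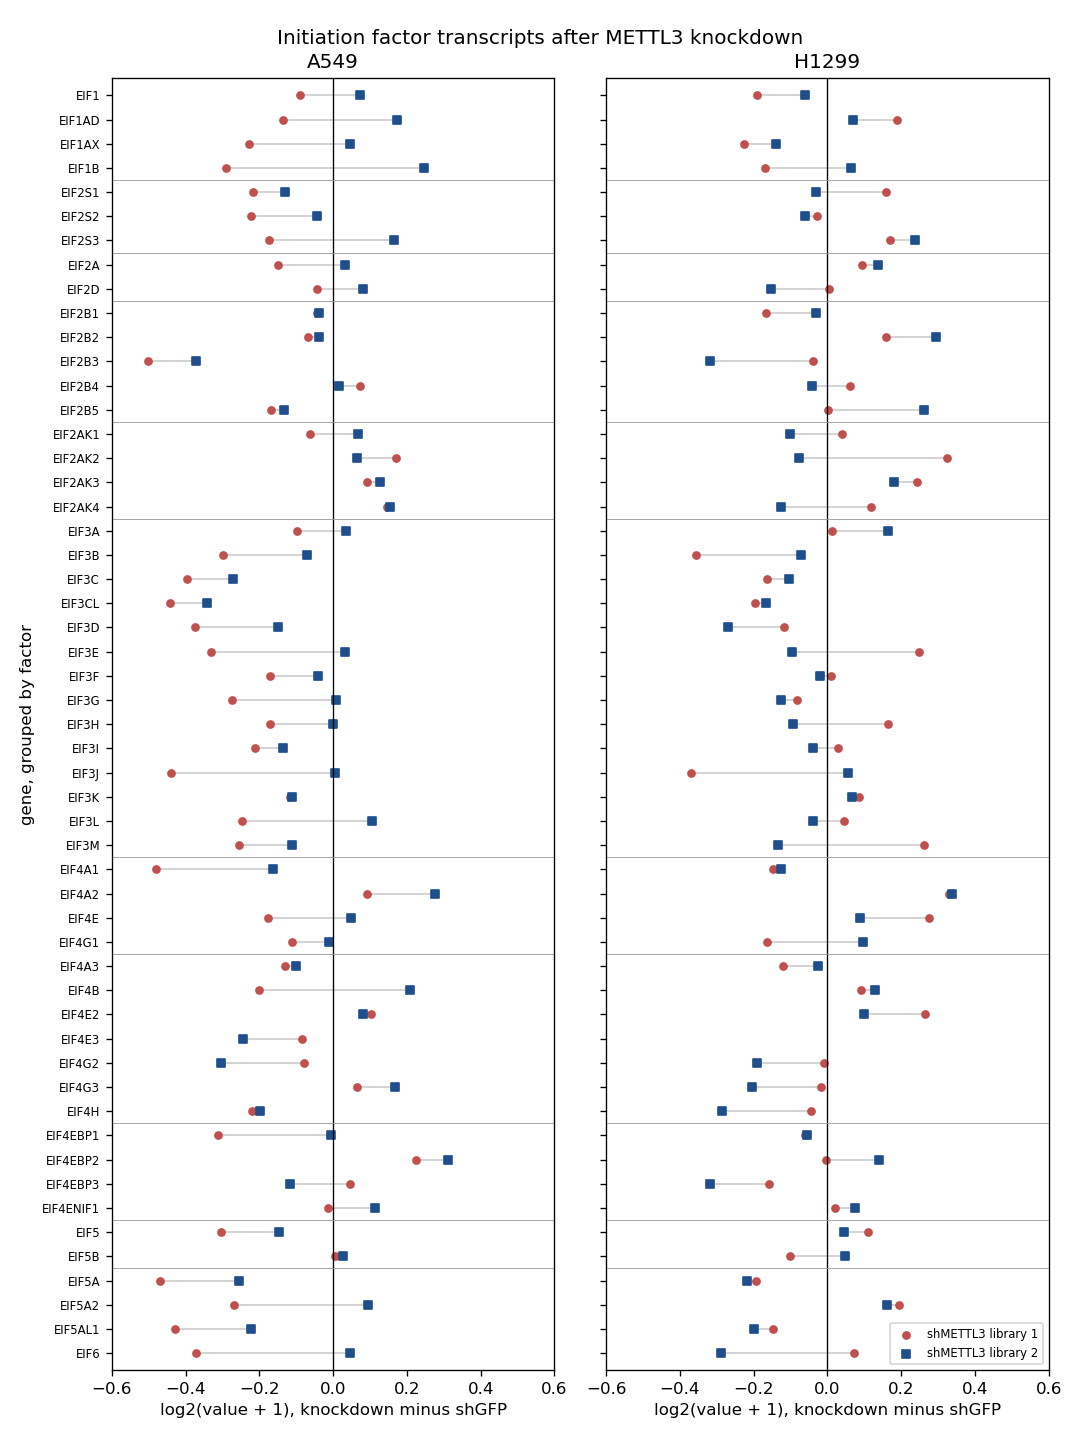
Difference in log2(value + 1) between each shMETTL3 library and the shGFP library of its line, for each initiation factor gene (rows, grouped by factor), with library 1 as circles and library 2 as squares. In A549 the circles lie to the left of the control line for most genes and the squares on both sides, with all 14 eIF3 genes to the left in library 1.

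**Figure D2:**
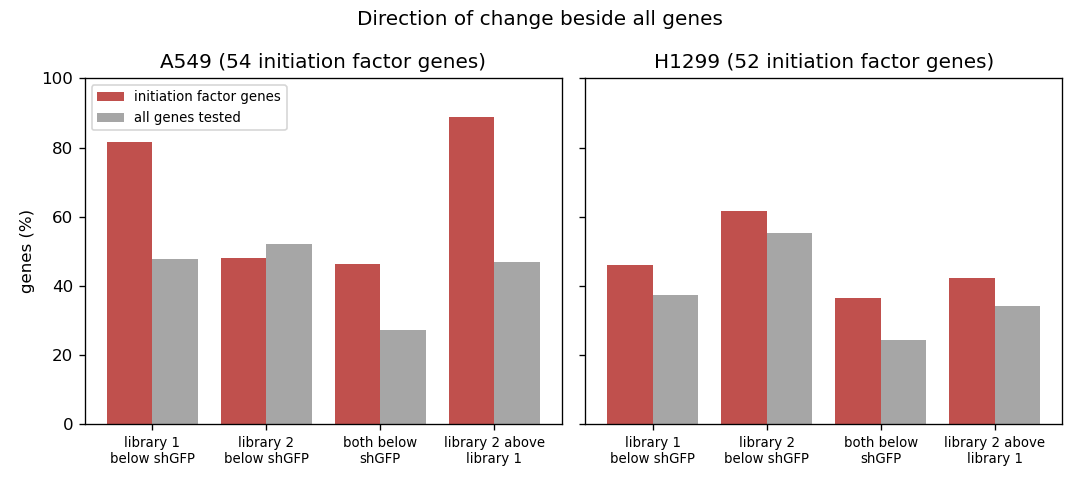
Percentage of initiation factor genes (red) and of all genes tested (grey) on the stated side, per line. In A549, library 1 was below shGFP for 81.5% of the members against 47.7% of all genes, and library 2 was above library 1 for 88.9% against 47.0%.

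The same direction in all 4 knockdown libraries was found for 14 lower and 3 higher genes of 52. The lower ones were 26.9% of the members, against 9.05% of all genes tested in both lines, and the higher ones 5.77%, against 10.5%. Without A549 library 1, 15 members (28.8%) were lower and 11 (21.2%) higher in the other three libraries, against 14.7 and 17.8% of all genes, so the low share of higher members rested on that library. With the mean set to at least 100, 12.2% of all genes were lower in all 4 and 8.39% higher. The libraries of a line share 1 control. The lower genes were EIF2B1, EIF2B3, EIF2S2, EIF3B, EIF3C, EIF3CL, EIF3D, EIF4A1, EIF4A3, EIF4EBP1, EIF4G2, EIF4H, EIF5A and EIF5AL1, and the higher ones EIF2AK3, EIF4A2 and EIF4E2. These are the genes by deposited values, and the count of 14 depends on the scaling. With median centring, EIF4EBP1 was no longer lower in both A549 libraries, nor EIF4A3 and EIF2B1 in both H1299 libraries. With RNA45S5 left out, EIF2S2, EIF2B1, EIF4A3 and EIF4EBP1 were no longer lower in both H1299 libraries, nor EIF4EBP1 in both A549 libraries. EIF3CL is a near copy of EIF3C and EIF5AL1 of EIF5A, so their reads may be shared, and without these copies 12 of 50 were lower in all 4. The lowest level of any member relative to its control was that of EIF2B3 in A549 library 1, at 70.2%.

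All 14 eIF3 genes were below the control in A549 library 1, where 47.7% of all genes were. Their median log2 difference was -0.26, against 0.02 for all genes. eIF3 is the largest initiation factor, a scaffold on the small ribosomal subunit that recruits the mRNA. In library 2 the median was -0.06, with 9 of 14 below, against 52.2% of all genes. Library 2 lay above library 1 at all 14, against 47.0% of all genes. Median centring, or leaving out RNA45S5, kept all 14 below in library 1, against 50.0 and 44.3% of all genes. In H1299, 6 of 14 were below in library 1 and 11 in library 2, with medians of 0.01 and -0.08, against 37.3 and 55.4% of all genes below, and after median centring 11 and 10 were below, against 50.0% of all genes in each library. A549 library 1 also had the highest sum of the listed lung epithelial markers in its line, as library 1 of H1299 did. The sums are not alike, since VIM made up most of each H1299 sum and was highest in library 1. In A549 library 1 VIM was below both other libraries. Whether either sum had a part in the eIF3 counts was not tested.

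Among the eIF3 genes, EIF3B and EIF3C were lower in every knockdown library, as were EIF3CL and EIF3D. EIF3B, which holds the EIF3G and EIF3I subunits, read 1691, 1375 and 1609 in A549 and 2781, 2171 and 2646 in H1299. Library 1 was the lower one in both lines, and limma gave a log2 change over both lines of -0.20 (SE 0.12). EIF3C, a partner of EIF3A in the core, read 693, 526 and 574 in A549 and 1267, 1130.4 and 1178 in H1299, and its near copy EIF3CL 696, 512 and 548 in A549 and 1262, 1101 and 1125 in H1299. The ratio of EIF3C to EIF3CL lay between 0.995 and 1.05 in all 6 libraries. By limma the log2 changes of EIF3CL were -0.39 (SE 0.19) in A549 and -0.18 (SE 0.18) in H1299, and those of EIF3C -0.33 (SE 0.19) and -0.13 (SE 0.18). EIF3A, the largest subunit, was on both sides of the control in A549 and above it in H1299 (4514, 4218 and 4627 in A549 and 7234, 7294 and 8108 in H1299).

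EIF3D, which can bind the cap of some mRNAs by itself, read 1732, 1335 and 1562 in A549 and 1611, 1485 and 1336 in H1299. All 4 knockdown values were below their control, with library 1 the lower in A549 and library 2 the lower in H1299 (log2 change over both lines -0.23 (SE 0.11), by limma). EIF3E and EIF3M were low in library 1 of A549 but high in library 1 of H1299. EIF3E read 2557, 2032 and 2613 in A549 and 1336, 1585 and 1250.0 in H1299. EIF3M read 1569, 1315 and 1453 in A549 and 665, 797 and 606 in H1299. EIF3H had the same pattern with smaller differences (1637, 1454 and 1636 in A549 and 1768, 1982 and 1658 in H1299).

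EIF3F, EIF3K and EIF3L differed little from the control in H1299. EIF3F read 1244, 1106 and 1209 in A549 and 1491, 1502 and 1470.2 in H1299. For EIF3K the values were 1198, 1104 and 1109 in A549 and 1309, 1390.2 and 1371 in H1299, below the control in both A549 libraries and above it in both H1299 libraries. EIF3L gave 857, 722 and 922 in A549 and 489, 505 and 476 in H1299. EIF3G and EIF3I, the partners of EIF3B, were low in A549 library 1 as EIF3B was, with EIF3G at 644, 532 and 647 in A549 and 2338, 2209 and 2143 in H1299 and EIF3I at 1662, 1436 and 1512 in A549 and 1431, 1459 and 1393 in H1299.

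EIF3J, a loosely bound subunit near the decoding centre, differed between libraries 1 and 2 in both lines. Its values were 264, 195 and 265 in A549 and 182, 141 and 189.6 in H1299. Library 1 was at 73.7% of the control in A549 and 77.2% in H1299, and library 2 at 100.3 and 104%. The antisense transcript EIF3J-AS1 has a row of its own, and as the strand setting of the counting is unknown here, reads of the pair may not have been told apart.

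The eIF4A helicases stood on opposite sides of the control. EIF4A1, the main helicase of eIF4F, which unwinds the 5′ end of the mRNA, read 4406, 3161 and 3936 in A549 and 2606, 2355 and 2387 in H1299. All 4 knockdown values were below their control, at 71.7 and 89.3% in A549 and at 90.3 and 91.6% in H1299. The A549 values rest on 8852 reads or more, and the exact 95% intervals of the A549 percentages, which cover counting error only, were 69.9 to 73.6 and 87.3 to 91.4. limma gave log2 changes of -0.32 (SE 0.25) and -0.14 (SE 0.17).

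EIF4A2, the second eIF4A helicase, read 910.3, 969 and 1102 in A549 and 381, 480.0 and 482 in H1299. All 4 knockdown values were above their control, at 106 and 121% in A549 and at 126% in both H1299 libraries. limma gave log2 changes of 0.18 (SE 0.20) and 0.33 (SE 0.20), the latter the highest of any member in H1299, and 0.26 (SE 0.11) over both lines. The ratio of EIF4A2 to EIF4A1, which the scaling of a library cannot move, was 0.207, 0.307 and 0.27995 in A549 and 0.146, 0.204 and 0.202 in H1299. It was thus 1.48 and 1.36 times the control in A549 and 1.39 and 1.38 times in H1299. The pair was chosen after its values were seen, and the ratio was not tested. The values are not per length, so the ratio is not that of transcript numbers.

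**Figure D3:**
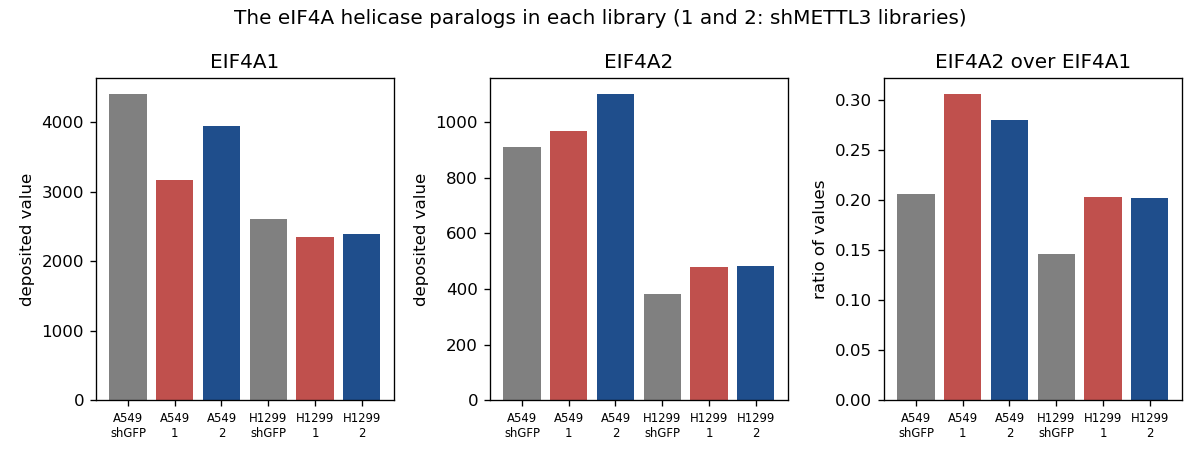
Deposited values of EIF4A1 and EIF4A2 and their ratio in each RNA library (1 library each). In both lines EIF4A1 is lower and EIF4A2 higher in both shMETTL3 libraries than in shGFP, and the ratio is highest in library 1 of each line, at 0.307 and 0.204.

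The other parts of eIF4F had no common side. EIF4E, the cap-binding protein, read 255, 225 and 263 in A549 and 97.1, 118 and 103 in H1299. EIF4G1, the main scaffold, read 661, 612 and 656 in A549 and 1152, 1029 and 1232 in H1299. Both knockdown libraries were thus above the control for EIF4E in H1299 and below it for EIF4G1 in A549, and otherwise split. EIF4E2, a cap-binding paralog that takes part in repression, was above the control in all 4 libraries (195, 209 and 206 in A549 and 118, 142 and 126 in H1299). EIF4E3, another paralog, was at 20.5, 19.3 and 17.2 in A549 and at 0 to 0.2 in H1299.

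EIF4H, EIF4G2 and EIF4A3 were lower throughout. EIF4H, which stimulates the eIF4A helicase, read 2162, 1857 and 1884 in A549 and 2679, 2597 and 2199 in H1299 (log2 change over both lines -0.19 (SE 0.11), by limma). EIF4G2, also called DAP5, which lacks the eIF4E site and serves initiation without eIF4E, read 4239, 4017 and 3436 in A549 and 1788, 1776 and 1566 in H1299. Library 2 was the lower for EIF4G2 in both lines, against the side of most members in A549. EIF4A3, a helicase of the exon junction complex and not of eIF4F, read 1299.5, 1188 and 1212 in A549 and 892, 821 and 876 in H1299.

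EIF4B, the other helicase cofactor, was split in A549 and above the control in H1299 (2478, 2157 and 2862 in A549 and 3140.0, 3346 and 3435 in H1299). EIF4G3, a scaffold paralog, was above the control in both A549 libraries and below it in both H1299 libraries (189, 198 and 212 in A549 and 547, 540.4 and 475 in H1299).

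The 4E-BP genes, whose products hold eIF4E back, had no common side. EIF4EBP1 was below the control in all 4 libraries, by little in A549 library 2 (549.7, 442 and 547 in A549 and 552, 529 and 531 in H1299). EIF4EBP2 read 621, 725 and 770.3 in A549 and 489, 488 and 539 in H1299 and had the highest change of any member in A549 (log2 0.27 (SE 0.19), by limma). EIF4EBP3 read 22.1, 22.9 and 20.3 in A549 and 20.2, 18 and 16.0 in H1299, with the lowest change of any member in H1299 (log2 -0.24 (SE 0.31)) and the largest standard error there. Reads of EIF4EBP3 may be shared with the transcript that joins it to its neighbour ANKHD1. EIF4ENIF1, which carries eIF4E to the nucleus, read 69.2, 68.6 and 75.0 in A549 and 94.3, 95.6 and 99.4 in H1299.

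The 3 subunits of eIF2 were all below the control in A549 library 1. EIF2S1, the alpha subunit that stress kinases phosphorylate, read 1480.3, 1274 and 1353 in A549 and 998, 1113 and 977 in H1299. EIF2S2, the beta subunit, was below the control in all 4 libraries (1666, 1428 and 1616 in A549 and 1974, 1937 and 1893 in H1299). EIF2S3, the gamma subunit that binds GTP and the initiator tRNA, was below it in A549 library 1 and above it in the other three (3298, 2922 and 3699 in A549 and 711, 801 and 839 in H1299). The alternative tRNA carriers EIF2A and EIF2D had no common side and lay between 89.8 and 110% of the control. EIF2A was at 782, 705 and 799.7 in A549 and 422, 450.4 and 464 in H1299. EIF2D was at 250, 242 and 265 in A549 and 218, 218 and 195 in H1299.

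Of the eIF2B genes, EIF2B3, the gamma subunit of the catalytic part, had the lowest change of any member in A549 (log2 -0.44 (SE 0.25), by limma). It read 68.2, 47.9 and 52.5 in A549 and 67.6, 65.8 and 54.0 in H1299. All 4 knockdown values were below the control, in H1299 library 1 by little. The A549 values rest on 259, 134 and 168 reads, and the exact 95% counting intervals put libraries 1 and 2 at 56.6 to 86.8% and 63.1 to 93.9% of the control.

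In A549 the other eIF2B subunits differed less, while in H1299 EIF2B2 had a larger change (log2 0.23 (SE 0.20), by limma) than EIF2B3 (-0.18 (SE 0.28)). EIF2B5, the catalytic subunit, and EIF2B2, a regulatory one, were below the control in A549 and above it in H1299. EIF2B5 read 438, 390.0 and 399 in A549 and 406, 407 and 488 in H1299. EIF2B2 read 434, 415 and 423 in A549 and 493, 551 and 604 in H1299. EIF2B1, another regulatory subunit, was lower in all 4 libraries (406, 394 and 396 in A549 and 371, 331 and 363 in H1299), and EIF2B4, of the same regulatory part, was close to the control (183, 192 and 185 in A549 and 130.4, 136 and 127 in H1299).

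Of the 4 kinases of eIF2, 1 was below the control in A549 library 1 and 0 in library 2. EIF2AK3, the endoplasmic reticulum stress kinase PERK, was above it in all 4 libraries (191, 204 and 208 in A549 and 41.0, 48.7 and 46.6 in H1299). EIF2AK4, the amino acid sensor GCN2, was above it in A549 and split in H1299 (505, 559 and 563 in A549 and 1255, 1361 and 1150.2 in H1299). EIF2AK2, the antiviral kinase PKR, had its high value in library 1 of each line (216, 243 and 226 in A549 and 96.3, 121 and 91.2 in H1299). EIF2AK1, the heme-regulated kinase, had no common side (1055, 1009 and 1106 in A549 and 633, 651 and 590.0 in H1299).

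EIF5, which triggers GTP hydrolysis by eIF2, was below the control in A549 and above it in H1299 (1669, 1351 and 1508 in A549 and 1141, 1232 and 1177 in H1299). EIF5B, which helps the large subunit join, was above it by little in A549 and split in H1299 (1853, 1858 and 1888 in A549 and 2212, 2064 and 2285 in H1299).

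EIF5A, which helps the ribosome past difficult stretches such as runs of proline, was lower in all 4 libraries. It read 2378, 1717 and 1993 in A549 and 1519, 1329 and 1305 in H1299. limma gave log2 changes of -0.36 (SE 0.21) and -0.21 (SE 0.18), and -0.28 (SE 0.11) over both lines. Its near copy EIF5AL1 kept the same order of libraries (1006, 746 and 862 in A549 and 570.4, 515 and 497 in H1299). The paralog EIF5A2 was split in A549 and above the control in H1299 (170.0, 141 and 182 in A549 and 69.6, 79.8 and 78.0 in H1299).

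EIF6, which keeps the large subunit from joining too early, had its low value in library 1 of A549 and library 2 of H1299 (314, 242 and 324 in A549 and 388, 408 and 318 in H1299). EIF1, which guards start codon choice, read 3897, 3661 and 4102 in A549 and 1519, 1332 and 1457 in H1299. EIF1AX, which acts with it at the decoding site, read 1657, 1416 and 1711 in A549 and 569, 486 and 516 in H1299. Both had their lowest value in library 1 of each line, as did EIF1B, a paralog of EIF1 (165, 135 and 196 in A549 and 134, 119 and 139.6 in H1299). EIF1AD, a protein with an eIF1A-like domain, did so in A549 only (53.4, 48.6 and 60.3 in A549 and 40.2, 46.0 and 42.2 in H1299).

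Because many members differed between libraries 1 and 2, these were compared without the control. In A549 library 2 was above library 1 for 48 of 54 members (88.9%), against 47.0% of all genes, and for 45 of 49 with a mean of at least 100, against 49.8%. H1299 had 22 of 52 (42.3%), against 34.3%, and after median centring 35 of 52, against 48.8% of all genes. The largest log2 differences of library 2 minus library 1 in A549 were at EIF1B (0.54), EIF3J (0.44) and EIF6 (0.42), and in H1299 at EIF3J (0.43), EIF2AK2 (-0.40) and EIF3M (-0.40). A limma fit over the 4 knockdown libraries with the line as a term called 0 of 52 members, with 1.17% of all 15546 genes called. Before adjustment 2 members had a p under 0.05, against 13.5% of all genes. EIF3J came nearest (log2 0.44 (SE 0.16), adjusted p = 0.228 by limma), followed by EIF1B (log2 0.38 (SE 0.17), adjusted p = 0.352 by limma).

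**Figure D4:**
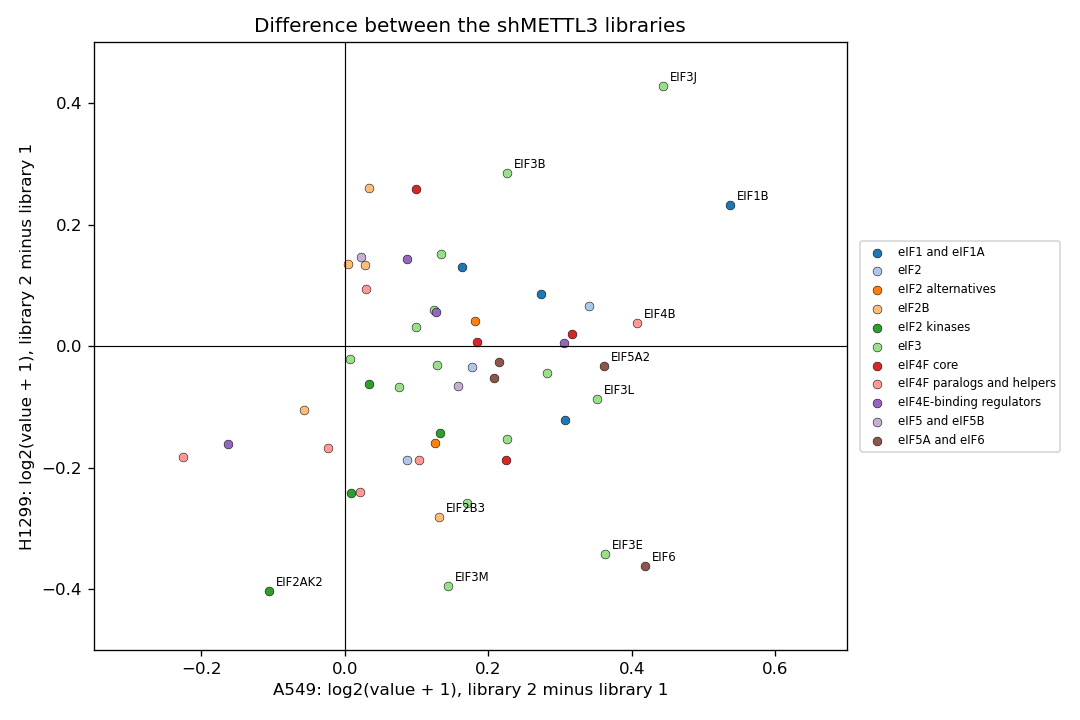
Difference in log2(value + 1) of library 2 minus library 1 for each initiation factor gene, in A549 (x axis) and H1299 (y axis), coloured by factor. Most points lie to the right of 0 on the A549 axis, and EIF3J is high on both axes, at 0.44 and 0.43.

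Both libraries lay on one side in A549 and on the other in H1299 for EIF2B2, EIF2B5, EIF3K, EIF4G3 and EIF5, or 9.62% of 52 members, against 11.7% of all genes. The largest difference of change between the lines among these was that of EIF5 (log2 0.30 (SE 0.25)). limma's test of that difference called 0 of 52 members and 0% of all genes. Members with an unadjusted p under 0.05 numbered 0 there, and 0.315% of all genes had one.

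The 5′ ends of the mRNAs are shown because they bear on how such mRNAs are translated. A 5′ terminal oligopyrimidine tract (TOP), a C at the first base followed by an unbroken run of pyrimidines, is the textbook mark of mRNAs of the translation apparatus whose translation follows mTORC1. No RefSeq start sequence (GRCh38.p14) was matched for some members, among them EIF3A, EIF3E, EIF3G, EIF3H and EIF3L, so their starts are not known here. Start sequences were matched for 44 members. Of these, 9 had a start with a C and at least 4 further pyrimidines (C or T, read on the gene's strand): EIF2A, EIF2D, EIF2S3, EIF3D, EIF3F, EIF3K, EIF3M, EIF4A2 and EIF4B. By sequence, 15.3% of the members' 59 starts and 4.07% of all 35116 starts met this. For 7 of them, 15 bases on each side of the annotated start are given in the direction of the transcript, with the C and its pyrimidine run in capitals.
EIF2S3 (chrX:24054941-24054970, plus strand): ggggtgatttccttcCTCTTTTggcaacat
EIF3D (chr22:36529152-36529181, minus strand): gcgcgcgcatgtttcCTCTTTTCCTggttt
EIF3F (chr11:7987322-7987351, plus strand): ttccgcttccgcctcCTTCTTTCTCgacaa
EIF3K (chr19:38619173-38619202, plus strand): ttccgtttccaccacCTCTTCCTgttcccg
EIF3M (chr11:32583816-32583845, plus strand): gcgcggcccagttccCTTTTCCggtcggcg
EIF4A2 (chr3:186783562-186783591, plus strand): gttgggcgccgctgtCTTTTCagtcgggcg
EIF4B (chr12:53006441-53006470, plus strand): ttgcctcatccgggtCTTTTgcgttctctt

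In A549 library 1, 8 of the 9 members with a TOP start were below the control, EIF4A2 being the exception, and 25 of the 34 members tested in both lines with another start. The median log2 differences were -0.17 and -0.15 there, and 0.03 and -0.00 in library 2. All genes with a TOP start had a median of -0.03 in A549 library 1, with 52.5% below, and those with another start 0.01, with 49.1% below. In H1299 library 1, 1 of 9 and 19 of 34 were below the control, with medians of 0.09 and -0.01. All genes with a TOP start had a median of 0.10 in that library, with 34.1% below, and those with another start 0.09, with 36.6% below. After median centring 4 of the 9 were below, against 50.0% of all genes. EIF4A1, EIF3B and EIF5A, lower in all 4 libraries, had no such start among the RefSeq entries used. EIF3D, also lower in all 4, had one. An annotated start is not a measured one, and its build is not that of the counts.

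Among the partners of the initiation factors, PDCD4 passed a test, between libraries 1 and 2 and not against the control. Of 18 genes for cap, poly(A) tail and initiation partners, 11 were below the control in both A549 libraries and 2 above, and in H1299 the counts were 6 and 4. Of all genes, 27.2% were on each side in A549, and 24.5% below and 30.6% above in H1299, which holds for the counts of the lists that follow. PDCD4, which blocks eIF4A, read 86.6, 186 and 85.9 in A549 and 75.9, 98.9 and 63.4 in H1299. Library 2 was lower than library 1 (log2 -0.87, SE 0.19, adjusted p = 0.0478 by limma over 15546 genes). The call was lost with a pseudocount of 0.1 (adjusted p = 0.0800 by limma), with median centring (0.187) and with RNA45S5 left out of the total (0.171). PABPC4, a poly(A)-binding protein, had the lowest change over both lines (log2 -0.26).

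The remaining lists held no gene past the threshold in any limma comparison, and in A549 the mTORC1 and eIF2 response lists lay near these shares of all genes. Of 12 genes of mTORC1 and of the kinases that control eIF4E, 3 were below in both A549 libraries and 3 above, and in H1299 6 and 2. DEPTOR, an mTOR inhibitor with values of 1.8 to 17.9, had the highest change over both lines (log2 0.72, SE 0.23) and the mTORC1 subunit MLST8 the lowest (-0.24). Of 12 genes of the response to eIF2 phosphorylation, 4 were below in both A549 libraries and 3 above, and in H1299 8 and 0. Asparagine synthetase ASNS had the lowest change (log2 -0.58, SE 0.21) and PPP1R15B, which targets the phosphatase of eIF2, the highest (0.12).

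Of 9 elongation factors, 7 were below the control in A549 library 1, with a median log2 difference of -0.22, and 2 in library 2, against 47.7 and 52.2% of all genes. In H1299, 3 of the 9 were below in library 1 and 4 in library 2, against 37.3 and 55.4% of all genes. EEF1A2, a tissue-restricted elongation factor, had the highest change over both lines (log2 0.25) and EEFSEC, which serves selenocysteine, the lowest (-0.26). The other classical TOP mRNAs were below the control at 10 of 10 in A549 library 1 (9 with RNA45S5 left out) and at 2 of 10 in library 2. In H1299 they were below at 3 of 10 in library 1 and at 5 of 10 in library 2. These counts are not separate from those above, since 5 of the 10 genes are also among the elongation factors and PABPC1 is among the partners. TPT1 had the highest change of these (0.19) and HNRNPA1, a splicing regulator, the lowest (-0.23). Of 5 termination and recycling factors, 3 were below in both A549 libraries and 1 above, and in H1299 2 and 2. The release factor genes GSPT2 and ETF1 had the highest (0.19) and lowest (-0.19) change over both lines.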

How the data were processed

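Polyadenylated RNA was made into libraries with a stranded kit, per the labels' protocols. TopHat, Bowtie and hg19 are named, without versions or roles, per the submitters' processing notes, and no source used here names the counter, the annotation or the strand option. The deposited signal values are reads divided by 1 factor per library: all (100%) lay within rounding of whole reads, but H1299 values have 1 decimal, which is too coarse to fix the reads of each gene, so whole reads were accepted and count tests run in A549 only. The m6A peak lists were not used here, as the reference tables are on another build. limma 3.58.1 (R 4.3.3) tested log2(value + 1) of genes with a mean of at least 1, per line (the lone shGFP library being assumed to vary like the knockdown libraries, with 1 residual degree of freedom), over both lines with line as a term, for their interaction, and for library 2 against 1. Calls had a Benjamini-Hochberg adjusted p under 0.05. The code was tested on simulated data. edgeR 4.0.16 and DESeq2 1.42.0 were alternatives. Fold changes on the log2(value + 1) scale understate those of low genes. Named by rule were core subunits, members on one side in all 4 knockdown libraries, the 3 furthest on each side per line, and each list's extremes. Members and lists were chosen with earlier results of these data known. Leaving out RNA45S5 or the near copies, and the mean of at least 100, were chosen after seeing the data.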

Additional observations from a re-analysis of the deposited data

How the results depend on the processing

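No paired analysis was possible because the only shGFP library of each line carries no number. No alternative that was run with limma, edgeR or DESeq2 called a member. edgeR and DESeq2 were not run in H1299 or across lines. The count of all genes called between libraries 1 and 2 went from 182 to 53 with a pseudocount of 0.1 and to 13 with median centring or with RNA45S5 left out. Median centring took the H1299 members with library 2 above library 1 from 22 to 35, with 34.3 and 48.8% of all genes. Leaving out 1 knockdown library moved the counts of members. In A549, lower ones numbered 26 without library 1 and 44 without library 2, and higher ones 28 and 10. In H1299, lower ones numbered 32 without library 1 and 24 without library 2, and higher ones 20 and 28. Members lower in all remaining libraries ranged from 15 to 19 and higher ones from 3 (without A549 library 2) to 11 (without A549 library 1). The shares of all genes moved too, from 12.2 to 18.1% lower and from 13.7 to 18.1% higher. The 19 lower members (36.5%) and the 18.1% of all genes lower were both without H1299 library 1. Without library 1 and without library 2, the log2 change of EIF4EBP3 in A549 was -0.12 and 0.046, that of EIF2AK4 in H1299 -0.13 and 0.12, and that of EIF4EBP2 in H1299 0.14 and -0.0041. EIF2AK4 in H1299 was also on the other side with RNA45S5 left out (0.0087). The cause was not tested. In A549 library 1, 36 of 53 members were below the control by more than counting error and 4 above it. In library 2 these counts were 17 and 11. The same share was not computed for all genes, so these counts do not set the members apart. At a median of 2972 control reads, small differences already exceed counting error.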

Other observations

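Rows left out of the initiation factors had low values, given in the order shGFP, library 1, library 2. The pseudogene EIF3IP1 read 9.21, 6.07 and 5.94 in A549 and 3.9, 4.9 and 2.4 in H1299. EIF3J-AS1, the antisense transcript of EIF3J, read 20.5, 20.7 and 23.1 in A549 and 29.8, 25.3 and 23.8 in H1299. It was thus level with the control in A549 library 1, where EIF3J was at 73.7%. The ratio of EIF5A to its near copy EIF5AL1 was 2.36, 2.30 and 2.31 in A549 and 2.66, 2.58 and 2.62 in H1299.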
